A study of Mus musculus with 10 samples.

Results

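G protein-gated inwardly rectifying potassium (GIRK) channels and GABA-B receptors were described here as 9 genes: the channel subunits Kcnj6 (GIRK2), Kcnj3 (GIRK1), Kcnj9 (GIRK3) and Kcnj5 (GIRK4), the receptor subunits Gabbr1 and Gabbr2, the auxiliary receptor subunits Kctd12 and Kctd16, and the regulator of G protein signalling Rgs7. They were chosen by name, as the rows of the count table whose Ensembl gene ID carries one of these symbols in the GRCm38 annotation, and all 9 were found among the 43629 genes of the table. Each of the 9 had enough counts to be tested, along with 17237 genes in all.

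RNA was sequenced from the whole hippocampus of 5 wild-type (WT) and 5 Dp1Tyb mice, with 1 library per mouse. Dp1Tyb mice, Dp(16Lipi-Zbtb21)1TybEmcf in the labels, model Down syndrome through a duplication on mouse chromosome 16 that runs from Lipi to Zbtb21 and gives its genes 3 copies in place of 2. Both groups were given the strain C57BL/6J.129P2 and an age of 18 weeks in the labels. The methods of the study describe them as male littermates and give a slightly higher age. They also state that all mice were backcrossed to C57BL/6J. Kcnj6 lies inside the duplicated segment, and the other 8 genes lie on other chromosomes. The duplication is in the germline, so it is present in every cell and throughout development. In a bulk sample, fewer cells of a type and less RNA per cell cannot be told apart.

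GABA-B receptors are obligate pairs of GABBR1, which binds GABA, and GABBR2, which couples to inhibitory G proteins of the Gi/o class. On activation the G protein releases its beta-gamma subunits, which open GIRK channels in the membrane, and potassium leaves the cell and hyperpolarises it. In hippocampal pyramidal neurons this gives the slow inhibitory postsynaptic current, carried mainly by channels that pair GIRK1 with GIRK2.

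The 4 channel genes are related, so a read from one could in principle be counted for another. The stretch that encodes the pore was compared at the length of 1 sequencing read, which was 75 bases. It is shown 5′ to 3′ on the coding strand, with the codons of the potassium selectivity filter (glycine, tyrosine, glycine) in capitals.
Kcnj6: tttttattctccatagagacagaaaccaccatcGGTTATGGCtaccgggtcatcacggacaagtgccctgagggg
Kcnj3: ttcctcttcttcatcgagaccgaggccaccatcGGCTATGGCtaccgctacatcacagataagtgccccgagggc
Kcnj9: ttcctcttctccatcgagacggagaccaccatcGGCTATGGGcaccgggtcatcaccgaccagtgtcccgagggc
Kcnj5: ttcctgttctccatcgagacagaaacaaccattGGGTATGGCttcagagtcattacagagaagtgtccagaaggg

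In GRCm38 these windows are chr16:94832744-94832818 on the minus strand (exon 3 of 4 of the Kcnj6 coding transcript), chr2:55437600-55437674 on the plus strand (exon 2 of 4 of Kcnj3), chr1:172326151-172326225 on the minus strand (exon 3 of 4 of Kcnj9) and chr9:32322526-32322600 on the minus strand (exon 3 of 4 of Kcnj5). Against the Kcnj6 window, 61 of the 75 bases were the same in Kcnj9 (81.3%), and 59 were the same in Kcnj3 and in Kcnj5 (78.7% each). Over the whole transcripts, the longest run of identical bases that Kcnj6 shared with Kcnj3 was 14, with Kcnj9 17 and with Kcnj5 22. These runs are shorter than a read, and 0% of the 75-base stretches of the 4 channel genes occurred on the same strand in another gene. The counts of the 4 channel genes were therefore compared as separate measurements.

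Levels were compared between genes per exon length, as RPKM, counts divided by exon length and library total, computed here from the deposited counts. In WT hippocampus the receptor subunits were the most abundant of the 9 transcripts. Gabbr1 stood at a mean of 91.2 RPKM and Gabbr2 at 47.0 RPKM (n = 5). Kcnj9 at 25.7 RPKM and Kcnj3 at 24.9 RPKM followed, and the ranges of these 2 genes over the WT samples overlapped. Rgs7 (11.0 RPKM), Kctd12 (8.86 RPKM), Kcnj6 (5.34 RPKM), Kctd16 (3.19 RPKM) and Kcnj5 (0.103 RPKM) came next in that order, and the WT ranges of all other neighbours in the order did not overlap. The place of Kcnj6 in this order depends on the length it is divided by, since its annotated exons cover 7633 bases together and its longest coding transcript 3627 bases.

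**Figure D1:**
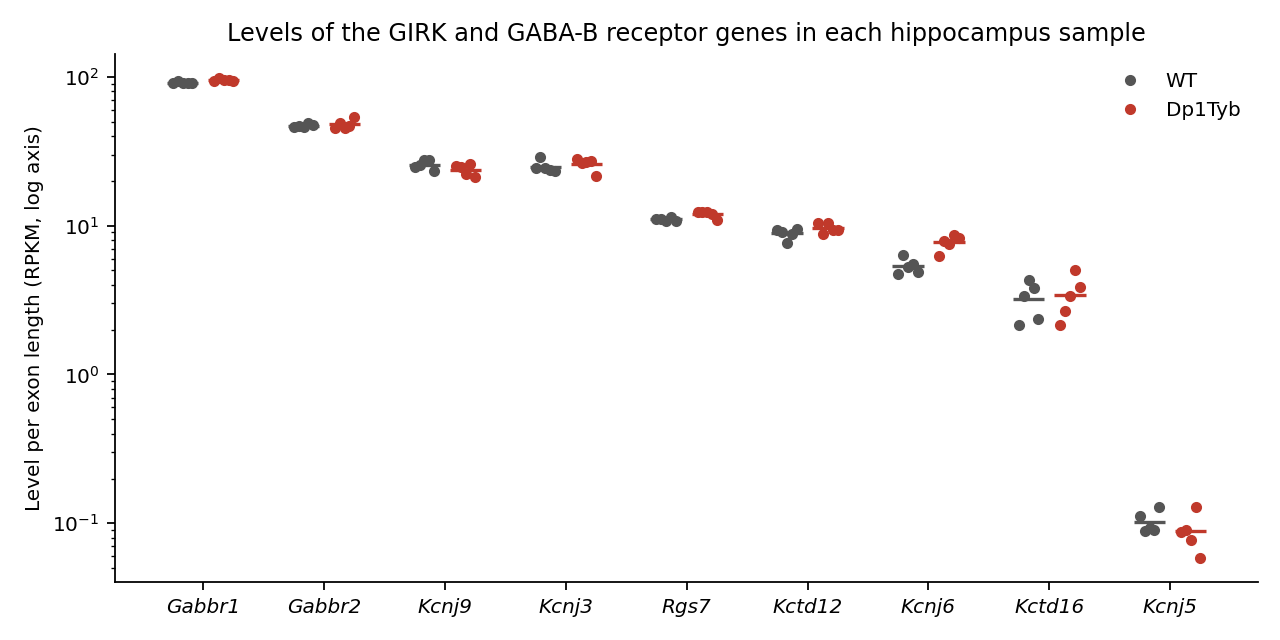
Level per exon length (RPKM, log axis) of the 9 genes in each of the 5 WT and 5 Dp1Tyb samples; points are samples and horizontal lines are group means. Gabbr1 had the highest WT mean at 91.2 RPKM and Kcnj5 the lowest at 0.103 RPKM, and Kcnj6 was higher in Dp1Tyb with the samples WT 2 and Dp1Tyb 1 at nearly the same level.

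Kcnj6, which encodes the GIRK2 subunit of neuronal channels, rose in Dp1Tyb hippocampus. Kcnj6 (ENSMUSG00000043301, chr16:94748636-94997701, minus strand) had 35.9, 48.2, 40.2, 42.1 and 37.3 CPM (counts scaled to a common library total with edgeR's TMM factors) in WT samples 1 to 5. In Dp1Tyb samples 1 to 5, Kcnj6 had 47.7, 60.2, 57.6, 66.3 and 62.8 CPM. The groups overlapped only between WT 2, the highest WT sample, and Dp1Tyb 1, the lowest Dp1Tyb sample. The group means of Kcnj6 were 40.7 ± 4.82 CPM and 58.9 ± 7.02 CPM (SD, n = 5 each), a log2 fold change of 0.53 ± 0.092 (SE) with an adjusted p of 0.0117 by edgeR's quasi-likelihood test. This is a 1.45-fold difference with a 95% interval of 1.26 to 1.66, which includes the 1.5-fold ratio of gene copies.

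Of the 9 genes, Kcnj6 alone passed an adjusted p of 0.05. Over all genes tested, 191 of 17237 (1.11%) passed, with 0.87% higher and 0.238% lower in Dp1Tyb. Within the duplicated segment 68 of 114 tested genes passed as higher (59.6%), and outside it 123 of 17123 passed (0.718%), so the Kcnj6 call stands among the majority of duplicated genes. The 8 genes outside the segment gave 0 calls in edgeR, limma voom and DESeq2, in which Kcnj5 received no adjusted p, and 1 of the 8 (Rgs7) had an unadjusted p under 0.05 in edgeR. Over all genes tested, 2477 (14.4%) had such a p. The median log2 fold change of the 8 genes was 0.062, beside −0.0049 for all genes outside the segment.

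Kcnj6 rose by about as much as the typical duplicated gene. By log2 fold change it ranked 58th of the 114 duplicated genes tested, whose median was 0.53 with quartiles of 0.34 and 0.64. Its standard error of 0.092 was close to the median of 0.084 for these genes.

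The 2 nearest tested genes on the side of lower coordinates rose with it. Dyrk1a, a protein kinase much studied in Down syndrome, averaged 82.3 ± 2.86 CPM in the WT samples and 125 ± 3.73 CPM in the Dp1Tyb samples (SD, n = 5 each), which is 0.60 ± 0.036 (SE) as a log2 fold change, and edgeR gave an adjusted p of 7.47e-07. Vps26c, a subunit of an endosomal sorting complex, rose by 0.57 ± 0.039 (SE) on the log2 scale, with an adjusted p of 2.38e-06 in edgeR. The Dyrk1a samples lay between 78.8 and 85.9 CPM in WT and between 120.4 and 130.8 CPM in Dp1Tyb, without the overlap seen for Kcnj6.

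The 2 nearest tested genes on the other side did not pass the test, although both are duplicated. Erg, a transcription factor of endothelial cells, had 4.90 ± 0.718 CPM in WT and 4.92 ± 0.281 CPM in Dp1Tyb (log2 fold change −0.0022, 95% interval −0.24 to 0.23, adjusted p = 0.995 in edgeR). The interval of Erg does not reach the 0.585 that a 1.5-fold difference is on the log2 scale. Gm7976, an unnamed gene with 15 to 31 counts per sample, had a log2 fold change of −0.03 with an interval of −0.46 to 0.41 (adjusted p = 0.966 in edgeR), and the signs of both values turned when single samples were left out. The summed level of endothelial markers was 136 to 156 CPM in WT and 129 to 141 CPM in Dp1Tyb, with 0 of 4 called and 2 with an unadjusted p under 0.05. Their part in the Erg value was not tested. Kcnj15, another inward rectifier gene that lies between Gm7976 and Erg and was looked at after its values were seen, was left out of the test for low counts, with 2 to 9 in a sample.

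**Figure D2:**
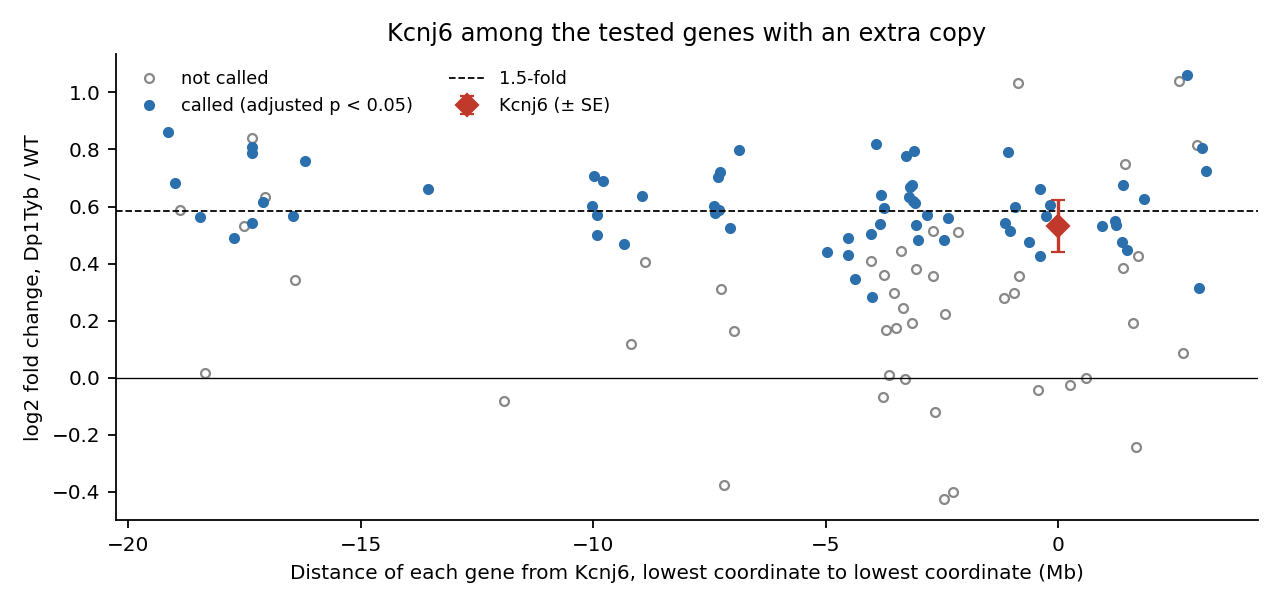
log2 fold change (Dp1Tyb over WT) of the 114 tested duplicated genes against their distance from Kcnj6 in Mb, measured between the lowest coordinates of the genes; filled circles passed an adjusted p of 0.05, open circles did not, and the dashed line is 1.5-fold. Kcnj6 (diamond, ± SE) sits at 0.53, the median of these genes, and Gm7976 and Erg just to its right sit near 0.

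The other 3 channel subunits did not pass the test. Kcnj3, whose GIRK1 protein needs another subunit to reach the cell surface, had 126.6, 150.0, 126.8, 123.5 and 121.1 CPM in WT and 147.2, 136.3, 139.4, 141.4 and 113.2 CPM in Dp1Tyb. Sample WT 2 was the highest of all 10 and Dp1Tyb 5 the lowest, and the overlap came from these 2 samples: the other 4 WT samples lay below the other 4 Dp1Tyb samples. The log2 fold change of Kcnj3 (ENSMUSG00000026824, chr2:55435970-55598145) was 0.07 ± 0.072 (SE, 95% interval −0.09 to 0.22, adjusted p = 0.705 in edgeR), an interval that leaves room for a rise of up to 16.5%. It was 0.12 without WT 2 or without Dp1Tyb 5 and 0.034 without Dp1Tyb 1, and passed in no fit that left out a sample.

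Kcnj9, whose GIRK3 subunit is sent to endosomes by a sorting nexin, had 106.3, 108.7, 118.4, 117.8 and 99.1 CPM in WT and 107.2, 105.9, 95.7, 110.8 and 90.4 CPM in Dp1Tyb. The 2 lowest Kcnj9 samples were both Dp1Tyb, and the groups overlapped. Its log2 fold change (ENSMUSG00000038026, chr1:172320501-172329318) was −0.11 ± 0.063 (SE, 95% interval −0.24 to 0.027, adjusted p = 0.454 in edgeR).

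Kcnj5, known mainly from the atrium of the heart, was barely detected. It had 17, 10, 8, 14 and 13 counts in WT samples and 18, 12, 9, 20 and 6 counts in Dp1Tyb samples. Its log2 fold change (ENSMUSG00000032034, chr9:32314707-32344350) of −0.18 had a 95% interval of −0.73 to 0.36 (adjusted p = 0.787 in edgeR), which is wide enough to hold a 1.5-fold decrease at this depth.

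The balance between channel transcripts was compared within each sample, as a ratio of counts that does not depend on scaling between libraries. Counts of Kcnj6 were 0.283, 0.321, 0.317, 0.341 and 0.308 of those of Kcnj3 in WT and 0.324, 0.442, 0.413, 0.468 and 0.555 in Dp1Tyb. Sample Dp1Tyb 1 lay within the WT range and the other 4 Dp1Tyb samples lay above it. The mean log2 ratio was −1.67 ± 0.097 in WT and −1.20 ± 0.28 in Dp1Tyb (SD, n = 5 each), a difference of 0.47 or 1.38-fold. An exact two-sided permutation test gave p = 0.0159, and 0.0238 after adjustment over the 3 ratios tested.

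Counts of Kcnj6 relative to Kcnj9 separated the genotypes. The ratio was 0.337, 0.443, 0.340, 0.357 and 0.376 in WT and 0.446, 0.569, 0.602, 0.598 and 0.694 in Dp1Tyb, so that every Dp1Tyb sample lay above every WT sample, with WT 2 and Dp1Tyb 1 nearly equal. The difference in mean log2 ratio was 0.64, from −1.44 ± 0.16 to −0.80 ± 0.23 (SD, n = 5 each), or 1.56-fold. The exact permutation p was 0.00794, the smallest that 5 against 5 samples allow, and 0.0238 after adjustment.

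**Figure D3:**
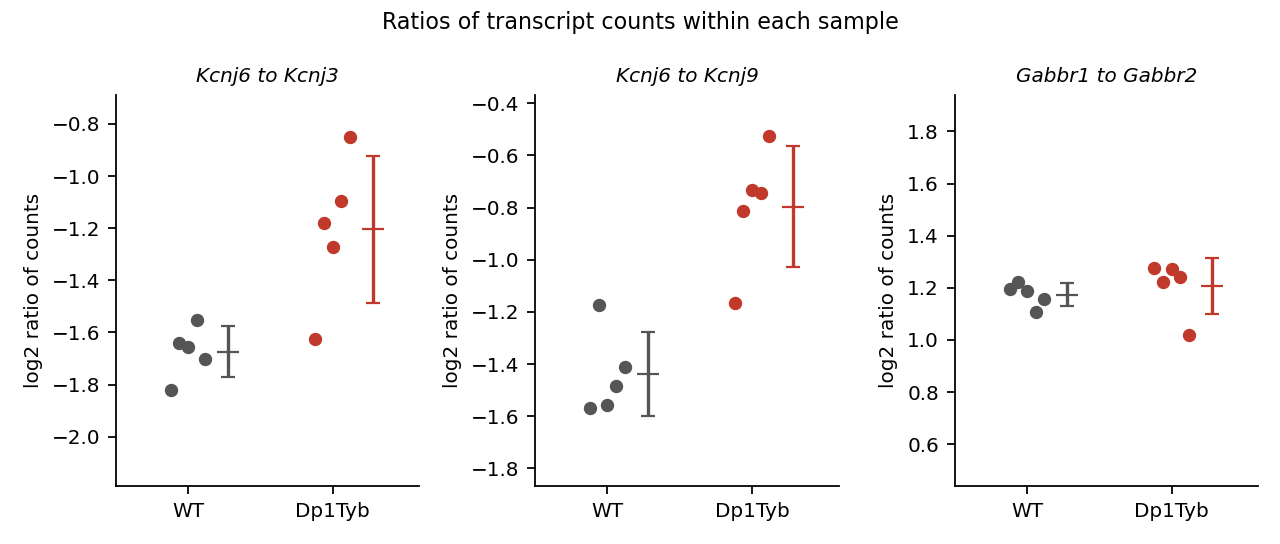
log2 ratios of counts within each sample for Kcnj6 to Kcnj3, Kcnj6 to Kcnj9 and Gabbr1 to Gabbr2; points are the 5 samples of a genotype, bars are the mean ± SD, and the 3 panels span the same range of log2 units. The Kcnj6 ratios were higher in Dp1Tyb by 0.47 and 0.64, and the receptor ratio differed by 0.033.

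Per exon length, Kcnj6 made up 9.51 ± 0.632% of the 4 channel transcripts in WT and 13.5 ± 2.01% in Dp1Tyb (SD, n = 5 each). The WT samples spanned 8.72% to 10.4% and the Dp1Tyb samples 10.5% to 16.1%. Counted over the longest coding transcript of each gene, the share of Kcnj6 was 17.3% in WT and 23.7% in Dp1Tyb, so the share itself depends on the length used and its direction did not. Kcnj3 made up 44.4% and 45.1%, Kcnj9 45.9% and 41.3%, and Kcnj5 0.186% and 0.152% by exon length. The sum of the 4 levels was 56.0 ± 3.50 RPKM in WT and 57.6 ± 4.07 RPKM in Dp1Tyb, and these ranges overlapped.

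Neither receptor subunit passed the test, and the 95% interval of each difference stayed under a 10% rise. Gabbr1 had 703.8, 726.7, 703.4, 702.6 and 705.7 CPM in WT and 730.3, 760.3, 736.4, 734.3 and 729.4 CPM in Dp1Tyb. Every Dp1Tyb sample lay above every WT sample, which was so for 2.56% of all genes tested (3.68% had ranges apart in either direction) and for no other of the 9 genes. The Gabbr1 difference (ENSMUSG00000024462, chr17:37045966-37075067) was nonetheless small, at 4.19% with a 95% interval of −0.864% to 9.51%, and did not pass the test (log2 fold change 0.06 ± 0.033 SE, adjusted p = 0.439 in edgeR).

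Gabbr2 had 307.5, 311.8, 309.0, 326.2 and 316.6 CPM in WT and 301.4, 325.6, 304.8, 310.7 and 359.9 CPM in Dp1Tyb. Dp1Tyb 5 stood above the rest and the other Dp1Tyb samples lay among or just below the WT samples. The log2 fold change of Gabbr2 (ENSMUSG00000039809, chr4:46662305-46991873) was 0.03 ± 0.047 (SE, 95% interval −0.073 to 0.13, adjusted p = 0.817 in edgeR), and without Dp1Tyb 5 it was −0.017.

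The ratio of Gabbr1 to Gabbr2 was 1.17 ± 0.044 on the log2 scale in WT and 1.21 ± 0.11 in Dp1Tyb (SD, n = 5 each), with an exact permutation p of 0.571. Dp1Tyb 5 had a ratio of 1.02, under every other sample, while the other 4 Dp1Tyb samples lay between 1.22 and 1.28. Without Dp1Tyb 5 the difference was 0.080 with an exact permutation p of 0.0159 (0.0238 adjusted), so this sample decides the call.

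KCTD proteins bind the tail of GABBR2 and set how fast the response begins and fades. Kctd12 had 56.6, 54.7, 46.4, 53.6 and 57.2 CPM in WT and 62.9, 52.8, 63.3, 56.3 and 56.5 CPM in Dp1Tyb. The 2 highest Kctd12 samples were Dp1Tyb and the lowest was WT, with overlap between. Its log2 fold change (ENSMUSG00000098557) was 0.12 ± 0.065 (SE, 95% interval −0.021 to 0.26, adjusted p = 0.426 in edgeR). Kctd16 had 7.43, 11.7, 14.9, 13.2 and 8.25 CPM in WT and 7.52, 9.31, 11.6, 17.6 and 13.6 CPM in Dp1Tyb. Kctd16 (ENSMUSG00000051401) had the largest standard error of the 9 genes after Kcnj5, and its log2 fold change of 0.11 had a 95% interval of −0.39 to 0.60 (adjusted p = 0.866 in edgeR), with a sign that turned when WT 1 or Dp1Tyb 4 was left out.

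RGS7, bound to the G protein subunit GNB5, speeds the shut-off of G proteins and so the closing of GIRK channels. Rgs7 had 66.3, 67.2, 64.8, 68.6 and 64.3 CPM in WT and 74.2, 74.5, 74.6, 71.9 and 66.0 CPM in Dp1Tyb. Samples 1 to 4 of Dp1Tyb lay above every WT sample and Dp1Tyb 5 lay within the WT range. The difference in Rgs7 (ENSMUSG00000026527, chr1:175059087-175492500) was 9.11% with a 95% interval of 2.47% to 16.2%, an unadjusted p of 0.0102 and an adjusted p of 0.197 by edgeR's test over all genes, so it did not pass.

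Some of these genes overlap a gene on the opposite strand, and the strand setting of the counting was not stated. Reads from the overlaps could have been joined with those of the other gene or dropped as ambiguous. Of the 75-base stretches of Kctd12, 60.5% lay in the antisense gene Gm26778, which had 0 counts in every sample. For Kcnj3 the share was 28.3%, in Gm26794, which had 73 to 215 counts per sample and a log2 fold change of 0.0054 (adjusted p = 0.989 in edgeR). For Kcnj6 the share was 4.0%, in a gene (Gm41505) that had no row in the table. The gene count of Kcnj6 also sums transcripts from RefSeq start sites that lie 141006 bases apart, which this table does not separate.

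Genes that act with the channel and receptor were taken as 4 lists of 69 genes in all, 66 of which were tested. Of these 66, 4 passed the test (6.06%), beside 1.11% of all genes and 0.718% of genes outside the duplicated segment. App, among the 4, is itself duplicated. The lists were chosen with earlier results of these data known, so no excess of calls can be read from this share. The lists' median log2 fold changes lay between −0.021 and 0.017, against −0.0041 for all genes tested.

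Of 15 genes for proteins of the receptor and RGS7 complexes and their relatives, 1 rose and none fell. That gene was App, whose amyloid precursor protein binds the extracellular part of GABBR1 and which is itself duplicated. App lay between 1543 and 1672 CPM over the WT samples and between 2518 and 2618 CPM in Dp1Tyb, and its rise of 0.69 ± 0.042 (SE) on the log2 scale had an adjusted p of 7.47e-07 in edgeR. Gnb5, the obligate partner of RGS7, had 68.9 ± 2.81 CPM in WT and 76.3 ± 3.60 CPM in Dp1Tyb and did not pass (log2 fold change 0.15 ± 0.044 SE, adjusted p = 0.141 in edgeR). Every Dp1Tyb sample of Gnb5 lay above every WT sample, which was so for 2.56% of all genes tested. WT 3 at 71.30 CPM and Dp1Tyb 3 at 71.34 CPM were nearly equal. Gpr158, which holds RGS7 at the membrane and was singled out after its values were seen, stood at 0.14 ± 0.039 (SE) on the log2 scale with an adjusted p of 0.134 in edgeR. Other genes of the list, also looked at after their values were seen, did not rise. Rgs7bp stood at −0.0085 ± 0.046 on that scale (adjusted p = 0.952 in edgeR) and Phf24 at −0.10 ± 0.037 (adjusted p = 0.247 in edgeR). Rgs6, a relative of Rgs7 that uses the same partner, had a value of −0.21 ± 0.077 on that scale (adjusted p = 0.249 in edgeR).

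Of 18 G protein subunits tested from a list of 19, 1 rose and none fell. Gnai1, an alpha subunit of the inhibitory class, had 184.5, 187.1, 189.0, 185.8 and 199.6 CPM in WT and 208.7, 223.8, 225.1, 221.6 and 207.6 CPM in Dp1Tyb, without overlap. Its log2 fold change was 0.20 ± 0.037 (SE, adjusted p = 0.0169 in edgeR), and the call was lost when WT 2, WT 4, Dp1Tyb 2 or Dp1Tyb 3 was left out. The gamma subunits Gng13 (−0.80 ± 0.41), Gng8 (−0.26 ± 0.19) and Gng5 (−0.21 ± 0.15) had the most negative log2 fold changes of the list (± SE) and did not pass. These values moved with single samples but stayed negative in all 17 alternatives. Leaving out single samples gave −1.17 to −0.49 for Gng13, which had 10 to 57 counts per sample. The ranges were −0.38 to −0.15 for Gng8 and −0.32 to −0.099 for Gng5. The values nearest to no change came without WT 5 for Gng13 and without Dp1Tyb 4 for Gng8 and Gng5. Gng13 was −0.30 without the 3 libraries low in choroid plexus markers.

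Of 23 other Gi/o-coupled receptors tested from a list of 25, 1 rose and 1 fell in edgeR. DESeq2 and the replicate block each called 3 genes of this list. Both also called more genes over the whole table, 507 and 315, beside 191 in edgeR without a block. Npy2r, picked after its values were seen, passed in DESeq2 (adjusted p = 0.016). In edgeR Npy2r had a log2 fold change of 0.22 ± 0.053 (SE) and did not pass (adjusted p = 0.0721). Cnr1, the CB1 cannabinoid receptor of presynaptic terminals, had 190.5, 198.6, 202.5, 204.1 and 189.3 CPM in WT and 237.8, 257.6, 256.5, 268.8 and 250.4 CPM in Dp1Tyb. Every Dp1Tyb sample of Cnr1 lay above every WT sample, and the log2 fold change was 0.37 ± 0.039 (SE, adjusted p = 0.000126 in edgeR). Among 5 interneuron markers 1 was called higher: Gad2, by 0.34 ± 0.074 (SE) on the log2 scale with an adjusted p of 0.041 in edgeR. The sum of the 5 was 626 to 701 CPM in WT and 706 to 808 CPM in Dp1Tyb. The other 4 markers had log2 fold changes of 0.21 (Gad1), 0.11 (Slc32a1), −0.05 (Sst) and −0.16 (Pvalb) and did not pass in edgeR. Of them, Gad1 alone passed in DESeq2 (adjusted p = 0.0116). The Gad2 call held in 3 of 10 fits without 1 sample (WT 3, Dp1Tyb 1 or Dp1Tyb 5), that of Cnr1 in all 10, and the part of these markers in the Cnr1 difference was not tested.

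Grm2, a presynaptic metabotropic glutamate receptor known from dentate granule cells, fell. It had 78.4, 76.9, 66.4, 78.3 and 67.9 CPM in WT and 62.9, 61.1, 51.5, 54.6 and 60.6 CPM in Dp1Tyb, so the groups did not overlap. The log2 fold change of Grm2 was −0.34 ± 0.066 (SE, adjusted p = 0.0252 in edgeR), and the call was lost without WT 1, WT 2, WT 4, Dp1Tyb 2, Dp1Tyb 3 or Dp1Tyb 4. The 4 dentate markers summed to 235.1 to 306 CPM in WT and 214 to 235.2 CPM in Dp1Tyb, with 0 called and 3 at an unadjusted p under 0.05, and their part in the Grm2 difference was not tested. Oprk1, the kappa opioid receptor, had the most positive log2 fold change of this list at 0.44 ± 0.21 (SE) and did not pass (adjusted p = 0.363 in edgeR).

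The other targets of Gi/o proteins, calcium channels and adenylyl cyclases, gave 0 calls among 10 genes tested in edgeR, with 1 at an unadjusted p under 0.05. That gene was Adcy1, the calmodulin-stimulated adenylyl cyclase, at −0.20 ± 0.077 (SE) on the log2 scale with an adjusted p of 0.272 in edgeR. Adcy6 (−0.11 ± 0.067) and Cacna1b, the pore of N-type calcium channels (0.09 ± 0.050), had the next largest values.

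**Figure D4:**
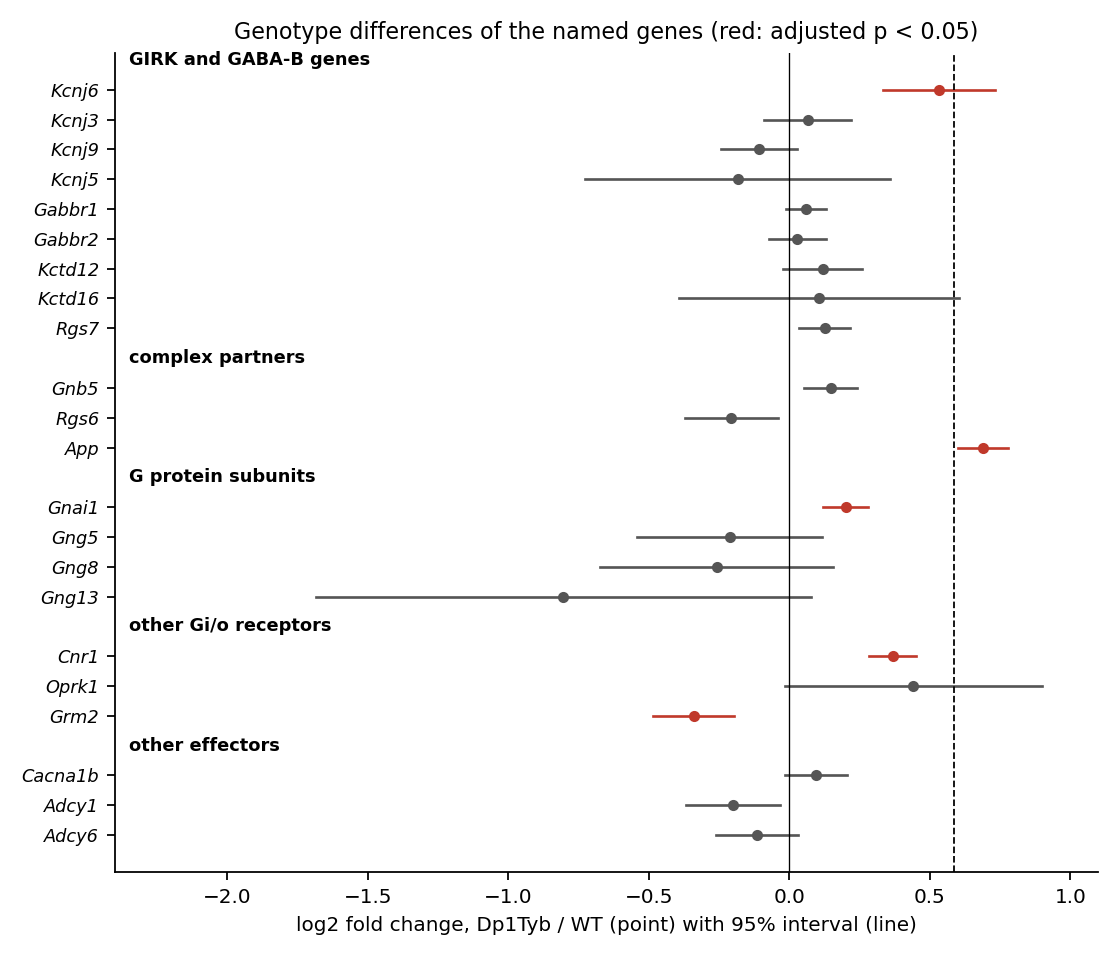
log2 fold change (Dp1Tyb over WT, point) with its 95% interval (line) for the 9 genes and the named genes of the 4 lists; red marks an adjusted p under 0.05 and the dashed line is 1.5-fold. Of the 9 genes only Kcnj6 is red, at 0.53, and App, Gnai1, Cnr1 and Grm2 are red among the others.

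The genes whose profile over the 10 samples was most like that of Kcnj6 were found by the root mean square difference of log2 CPM, each relative to its own mean. The closest were Nrip1 (0.121), Luzp2 (0.121), Brwd1 (0.123), Dscam (0.125) and Rbms3 (0.126). Nrip1, Brwd1 and Dscam are duplicated, with log2 fold changes of 0.56, 0.54 and 0.63. Luzp2 on chromosome 7 and Rbms3 on chromosome 9 are not duplicated. Rbms3 rose by 0.43 ± 0.069 (SE) on the log2 scale with an adjusted p of 0.00589 in edgeR, and Luzp2 had 0.34 ± 0.075 and did not pass (adjusted p = 0.0504 in edgeR). Luzp2 did pass in 6 of 17 alternatives, among them the replicate block (0.00103) and the fit without Dp1Tyb 1 (0.0147). All 5 had positive log2 fold changes, and the measure includes the difference between genotypes.

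Markers of other cells were present unevenly. Total counts per sample ran from 18227684 to 43692270, and neuronal markers summed to 4731 to 5240 CPM in WT and 5196 to 5554 CPM in Dp1Tyb, with 0 of 5 called. The 7 markers of the choroid plexus, a secretory tissue next to the hippocampus, summed to 414 to 5288 CPM in WT and 36.8 to 3790 CPM in Dp1Tyb, with WT 2, Dp1Tyb 1 and Dp1Tyb 4 lowest, 0 of 7 called and none at 0 in any sample. Astrocyte markers summed to 1068 to 1187 CPM in WT and 1234 to 1304 CPM in Dp1Tyb. In edgeR 1 of these 4 was called (Gfap, not called without Dp1Tyb 2), and 3 had an unadjusted p under 0.05. Without the 3 libraries low in choroid plexus markers, Kcnj6 had a log2 fold change of 0.62 with an adjusted p of 0.000284 in edgeR, and Cnr1 and App were also called, while Gnai1 (adjusted p = 0.123) and Grm2 (adjusted p = 0.122) were not. Gfap was not called in that fit either (adjusted p = 0.0854 in edgeR). With 4 against 3 samples, the log2 fold changes of Gnai1 and Grm2 were 0.20 and −0.34, as with all 10.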

How the data were processed

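Whole-hippocampus RNA from 5 WT and 5 Dp1Tyb mice was sequenced as stranded poly(A) libraries with paired 75-base reads. The authors trimmed reads with TrimGalore, aligned them to GRCm38 with TopHat 2.0.12, discarded reads with several alignments and counted reads per gene with htseq-count; the strand setting and annotation release are not given in the sources used here. The deposited counts, raw whole numbers per Ensembl gene, were used. A deposited table of normalized values was not used, nor was the authors' DESeq2 1.6.3 comparison, which holds means, log2 fold changes, standard errors, Wald statistics and p-values. Discarding multiple alignments lowers counts where genes share sequence.

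Symbols and positions came from GENCODE M21 (GRCm38), which matched 42462 of 43629 IDs. Genotypes were compared with edgeR 4.0.16 in R 4.3.3 (quasi-likelihood test, TMM, filterByExpr, no covariates, Benjamini-Hochberg adjustment over all 17237 genes tested, threshold 0.05), after a test on simulated data. Count ratios were compared with exact two-sided permutation tests over 252 relabellings (scipy 1.17.1), adjusted over 3 ratios. RPKM used the union of annotated exons. Alternatives were median-of-ratios scaling, TMM from genes outside the segment, no filter, DESeq2 1.42.0, limma voom 3.58.1, a replicate block and leaving out each sample.

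The genes, the lists of partners and the cell markers were chosen with earlier results of these data known. Named genes were the 9 genes, each list's called genes and 3 largest log2 fold changes, the 2 nearest tested genes on each side of Kcnj6, and the 5 genes closest to it in profile. Each mouse is 1 library, and no sequencing batch is given in the labels.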

Additional observations from a re-analysis of the deposited data

Results flagged for a closer look

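In 68 groups of 5 samples, formed by the named genes and ratios in each genotype, 5 held a sample far from the other 4 by Dixon's test, where chance alone flags about 1 in 20 (3.4 of 68). In WT 2, Kcnj3 stood at 7.23 log2 CPM beside 6.92 to 6.99 in the other WT samples, and Gabbr1 at 9.51 log2 CPM beside 9.46 in the other 4. In Dp1Tyb 2, Gabbr1 stood at 9.57 log2 CPM beside 9.51 to 9.52. In Dp1Tyb 5, the log2 ratio of Gabbr1 to Gabbr2 was 1.02 beside 1.22 to 1.28. In WT 3, Oprk1 stood at 0.88 log2 CPM beside 0.037 to 0.22. WT 2 also had the highest Kcnj6 level of the WT samples and the lowest choroid plexus markers of them, 414 CPM; any link between these values was not tested.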

How the results depend on the processing

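Kcnj6 was called in all 17 alternatives, with log2 fold changes of 0.48 to 0.62 and adjusted p-values of 4.14e-06 to 0.0396, and it was the only one of the 9 genes called in each of them. The number of genes called was 507 with DESeq2 and 315 with a replicate block (sharing 183 of the 191), and leaving out single samples gave 105 to 218, with the fewest calls without WT 4 (105), WT 5 (127), Dp1Tyb 2 (105) or Dp1Tyb 3 (111). Without the 3 libraries low in choroid plexus markers, chosen after seeing the data, 108 genes were called, of which 0 were G protein subunits and 1 was another Gi/o receptor; leaving out single samples gave 0 to 2 and 1 to 2 for these lists.

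Same-numbered WT and Dp1Tyb samples did not all deviate together (correlations −0.0686 to 0.277, 1 of 5 numbers best with its own). These values do not settle whether the numbers pair the samples. The standard error of Kcnj6 was 0.061 with the replicate block and 0.092 without it. With a replicate block the difference in log2 ratio was 0.47 for Kcnj6 to Kcnj3 and 0.64 for Kcnj6 to Kcnj9, and the exact permutation test of 5 pairs cannot go under 0.0625. Without the low choroid plexus libraries these differences were 0.58 and 0.81, where 4 against 3 samples cannot go under 0.0571. Leaving out single samples gave 0.38 to 0.57, 0.58 to 0.74 and, for Gabbr1 to Gabbr2, 0.016 to 0.080.

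Among the other named genes, 478 of 510 fits kept direction and side of the threshold. The call was lost in 12, all of Gnai1 or Grm2 with samples left out, and gained in 6, all of Luzp2 (adjusted p 0.00103 with the replicate block, 0.00103 to 0.136 over all alternatives). Within the named genes as defined above, the replicate block changed no other call. Of the list of other Gi/o receptors it called 3, beside 2 without the block. The sign turned for Gabbr2 without Dp1Tyb 5 (−0.017, in a range of −0.017 to 0.050 over the samples left out) and for Kctd16 without WT 1 (−0.014) or Dp1Tyb 4 (−0.089, in a range of −0.089 to 0.24). The values of Gm7976 and Erg lay near 0 and turned in 5 and 6 fits: leaving out single samples gave −0.14 to 0.070 for Gm7976 and −0.075 to 0.065 for Erg, leaving out the low choroid plexus libraries gave 0.24 for Gm7976, and the block gave 0.0068 for Erg. The cause of these changes was not tested. Kcnj5, with 6 to 20 counts per sample, is limited by depth.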
